A study of Homo sapiens with 6 samples.

Results

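Tissue factor, its inhibitors, the plasminogen activators and related coagulation genes were examined in U87MG cells with and without added LMO2. The 9 genes were taken by symbol from a list of coagulation and fibrinolysis genes: F3, TFPI, TFPI2, THBD, THBS1, PLAU, PLAUR, PLAT and SERPINE2. These genes were chosen with earlier results of these data known. They were 9 of the 27125 genes with a usable row, and all 9 were among the 16092 genes with enough reads for testing. U87MG is an established human glioblastoma cell line, and LMO2 is a LIM-domain adaptor protein that joins transcription factor complexes. The cells received a control lentivirus (U87MG-control, 3 libraries) or a lentivirus carrying LMO2 (U87MG-LMO2, 3 libraries), in both cases for 24 h, and total RNA was sequenced. The LMO2 plasmid of the study used a CMV promoter, which drove the added gene from the vector. Nothing in the labels says that the libraries of a group came from separate cultures. The p-values therefore measure only the spread between these libraries, which may be technical.

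Tissue factor, the product of F3, is the membrane receptor that binds factor VII and starts the clotting cascade, and glioblastoma is known for high tissue factor and for clotted vessels. TFPI and TFPI2 encode Kunitz-type inhibitors, and thrombomodulin (THBD) turns thrombin towards the activation of protein C. The plasminogen activators urokinase (PLAU) and tissue-type activator (PLAT) cut plasminogen into plasmin, the protease that dissolves fibrin and is used by invading cells. The urokinase receptor (PLAUR) holds urokinase at the cell surface, and protease nexin 1 (SERPINE2) is a serpin that blocks thrombin, urokinase and tissue-type activator. Thrombospondin 1 (THBS1) is a matrix protein of platelet granules and of many tissues that is known as an inhibitor of vessel growth.

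None of the 9 genes passed the test over all genes. F3, THBS1 and SERPINE2 lay higher in every U87MG-LMO2 library than in any control library, and TFPI lay lower in every one. Of all tested genes, 34.1% likewise did not overlap between the groups. The mean levels in U87MG-LMO2 were 2.59-fold, 3.61-fold and 2.01-fold those of the control for F3, THBS1 and SERPINE2, and 0.754-fold for TFPI, as fitted by edgeR. THBD and PLAUR had fitted differences near 0. Of 6 ratios between paired genes, 4 did not overlap between the groups. Each of these 4 holds F3 or SERPINE2, whose own levels did not overlap, so they are not separate evidence. Among them, tissue-type activator over protease nexin 1 was 0.312-fold the control value. Neither gene passed the test by itself, and the ratio did not pass either. Its exact permutation p was 0.1, the smallest this design allows, and its adjusted p was 0.15.

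The sequence before the start site is shown for the 4 genes whose libraries did not overlap between the groups, since a shared sequence feature would be sought there first. RefSeq start sites of build GRCh38.p14 gave a window for 7 of the 9 genes (9 windows, since SERPINE2 and PLAU each have 2 start sites), and each window holds the 250 bases before the start. RefSeq and GENCODE place some starts at different bases. The windows of TFPI and SERPINE2 lie inside the genes as GENCODE places them, at chr2:187464230-187565760 and chr2:223975112-224039319, and not before their 5′ ends. The last bases of the F3 window, with its TATA match, also lie inside the GENCODE gene, at chr1:94529225-94541800. Capitals mark matches, on either strand, to 5 motifs: the STAT letters TTCNNNGAA, the AP-1 letters TGANTCA, the GATA letters AGATAA, the SP1 letters GGGCGG and the TATA letters TATAAA. The windows lie at chr1:94541760-94542009 on the minus strand for F3, at chr15:39580829-39581078 on the plus strand for THBS1, at chr2:224031479-224031728 and chr2:224038641-224038890 on the minus strand for SERPINE2, and at chr2:187554436-187554685 on the minus strand for TFPI. Each is written 5′ to 3′ in the direction of transcription.
F3: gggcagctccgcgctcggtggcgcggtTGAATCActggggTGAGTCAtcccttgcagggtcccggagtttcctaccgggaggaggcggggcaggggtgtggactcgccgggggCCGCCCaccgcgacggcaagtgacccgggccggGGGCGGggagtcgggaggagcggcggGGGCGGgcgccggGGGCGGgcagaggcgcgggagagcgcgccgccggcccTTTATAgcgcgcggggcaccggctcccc
THBS1: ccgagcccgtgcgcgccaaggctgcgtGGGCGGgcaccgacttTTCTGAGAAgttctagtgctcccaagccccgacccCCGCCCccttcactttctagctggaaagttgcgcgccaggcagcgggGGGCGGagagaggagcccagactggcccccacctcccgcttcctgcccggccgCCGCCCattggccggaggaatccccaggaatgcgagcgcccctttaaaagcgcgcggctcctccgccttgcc
SERPINE2 (downstream start): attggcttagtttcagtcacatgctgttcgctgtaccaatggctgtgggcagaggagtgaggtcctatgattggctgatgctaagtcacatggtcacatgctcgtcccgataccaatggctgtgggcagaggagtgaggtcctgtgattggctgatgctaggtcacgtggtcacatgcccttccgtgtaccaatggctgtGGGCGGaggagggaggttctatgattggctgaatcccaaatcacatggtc
SERPINE2 (upstream start): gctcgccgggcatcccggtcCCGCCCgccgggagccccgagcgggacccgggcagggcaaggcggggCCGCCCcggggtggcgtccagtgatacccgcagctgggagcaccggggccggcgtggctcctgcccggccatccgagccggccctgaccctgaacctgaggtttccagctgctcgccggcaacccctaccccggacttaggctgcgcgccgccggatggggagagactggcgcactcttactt
TFPI: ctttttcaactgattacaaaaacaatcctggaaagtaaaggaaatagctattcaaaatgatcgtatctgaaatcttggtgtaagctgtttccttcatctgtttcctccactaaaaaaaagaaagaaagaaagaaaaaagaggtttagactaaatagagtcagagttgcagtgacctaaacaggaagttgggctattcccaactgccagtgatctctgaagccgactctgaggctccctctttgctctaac

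The F3 window was the only one of the 9 with a TATA match, 28 bases before the RefSeq start. It also held 2 AP-1 matches, at 223 and 210 bases before that start, and 4 SP1 matches. The window of THBS1 was the only one with a STAT match, at 207 bases before the start. AP-1 letters also occurred in the windows of PLAUR and TFPI2, and SP1 letters occurred in those of 5 of the 7 genes. The TFPI window held none of the 5 motifs and had 38.4% G and C, against 78% in that of F3. No GATA letters were found in any of the 9 windows. Over all 35116 promoter windows of the same length, 6.57% held the STAT letters, 6.57% the AP-1 letters, 9.17% the GATA letters, 42.6% the SP1 letters and 10.7% the TATA letters. The windows of F3, THBS1 and SERPINE2, the genes that lay higher in U87MG-LMO2, all held SP1 letters, as did 42.6% of all windows. SP1 letters also occurred in windows of PLAU and TFPI2, whose log2 fold changes were −0.28 and −0.054 (adjusted p 0.464 and 0.857, edgeR). Whether these letters bear on the levels was not tested. A match is a description of the letters and not of binding.

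The libraries held between 11428432 and 13537284 expected counts in the control group and between 14630627 and 17892955 in U87MG-LMO2. LMO2 itself had 7, 11 and 5 counts in the control libraries and 5459, 4503 and 14570 in the U87MG-LMO2 libraries, so that the labels held in all 6. Its log2 fold change was 9.70 ± 0.60 (SE), at an adjusted p of 0.000413 in edgeR's quasi-likelihood test with Benjamini-Hochberg adjustment. Of the glial and glioma markers with a usable row, VIM carried most of the reads. CD44 and NES were also expressed, with means over the 6 libraries of 508.2 and 7.7 FPKM, a level scaled to transcript length and to mapped reads. SOX2, OLIG2 and S100B, which mark neural, oligodendroglial and glial cells, were under 1 FPKM in every library. GFAP of this list was left out, as its row was damaged. The summed level of 7 endothelial markers, the cells in which thrombomodulin and TFPI are best known, was 2.28 to 2.36 FPKM in the control and 1.91 to 2.22 FPKM in U87MG-LMO2, with 5 of the 7 under 1 FPKM in every library. That of 5 epithelial markers was 3.22 to 3.39 FPKM in the control and 2.58 to 2.93 FPKM in U87MG-LMO2, with 4 of the 5 under 1 FPKM. The 5 monocyte and macrophage markers summed to 214.6 to 285.7 FPKM in the control and 161 to 286.4 FPKM in U87MG-LMO2, nearly all of it CD68, and 3 of the 5 were under 1 FPKM. Of the platelet markers, 3 of 5 had a row, and they summed to 0.66 to 0.88 FPKM in the control and 1.14 to 1.4 FPKM in U87MG-LMO2. CSF1R of the monocyte list and GP1BA of the platelet list passed the test, at log2 fold changes of 0.81 and 0.95, and their part in the results was not tested. In RNA of a whole culture, fewer cells that express a gene and less RNA per cell cannot be told apart.

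**Figure D1:**
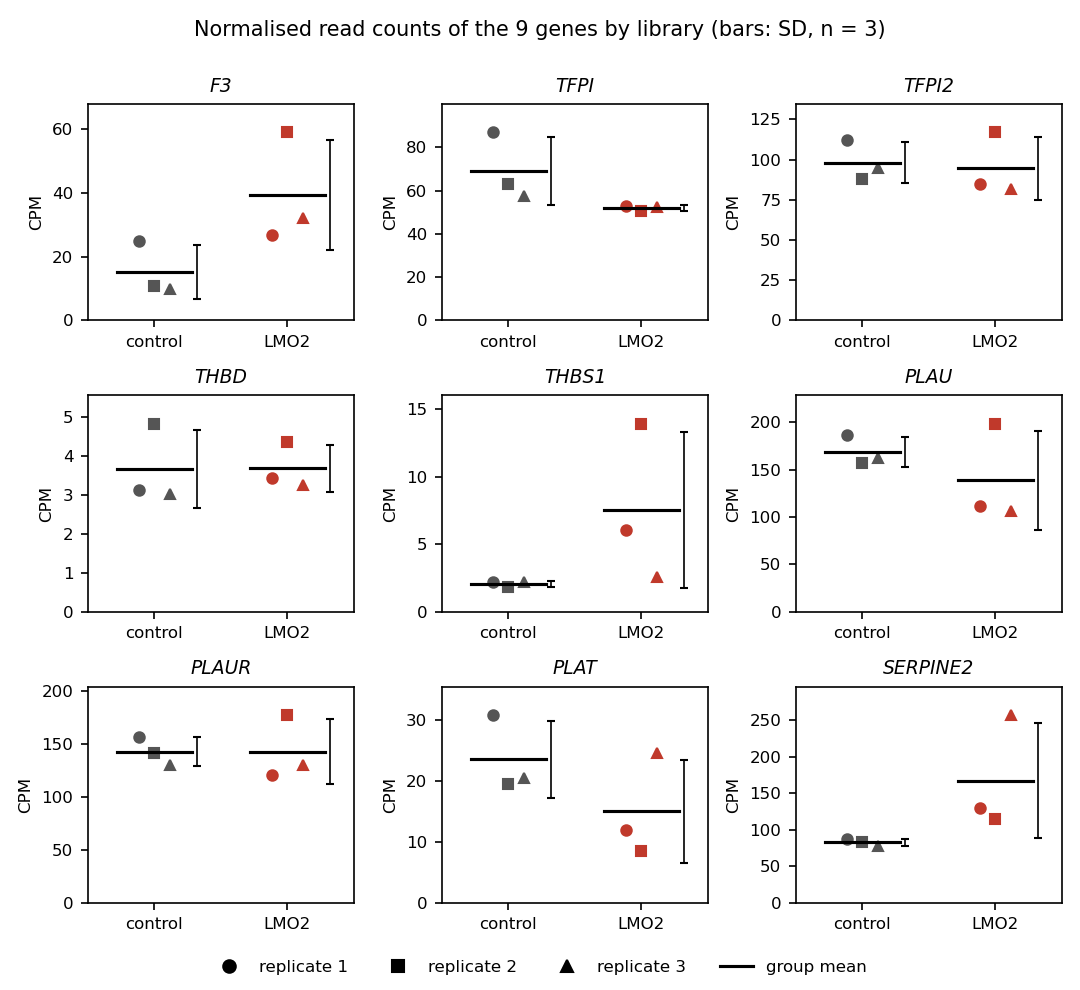
Normalised read counts (CPM, expected counts scaled to library size, y axis from 0) of the 9 genes in the 3 U87MG-control and 3 U87MG-LMO2 libraries; points are libraries, shaped by replicate number, thick lines are group means and bars are the SD (n = 3). The U87MG-LMO2 points lie above all control points for F3, THBS1 and SERPINE2 and below them for TFPI, and the other 5 genes overlap.

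The first comparison asked whether tissue factor and its inhibitors differed between U87MG-LMO2 and U87MG-control. F3 (Entrez gene 2152, chr1:94529225-94541800 in GRCh38 by GENCODE v29) had 25.07, 10.66 and 9.989 CPM in control replicates 1 to 3 and 26.78, 59.03 and 32.05 CPM in U87MG-LMO2 replicates 1 to 3. The groups did not overlap, but the highest control library and the lowest U87MG-LMO2 library were only 25.07 and 26.78 CPM apart. The control mean was 15.24 ± 8.52 CPM (SD, n = 3) and that of U87MG-LMO2 39.29 ± 17.3 CPM (SD, n = 3). By edgeR's quasi-likelihood test the log2 fold change was 1.37 ± 0.40 (SE), with a 95% interval of 0.47 to 2.28 and an adjusted p of 0.0725, so that F3 missed the threshold of 0.05. Over the 6 fits that left out 1 library, the log2 fold change of F3 lay between 0.96 and 1.92.

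TFPI, the main inhibitor of the tissue factor and factor VII complex (Entrez gene 7035, chr2:187464230-187565760), had 86.84, 62.81 and 57.28 CPM in the control libraries and 52.70, 50.58 and 52.60 CPM in the U87MG-LMO2 libraries. The U87MG-LMO2 libraries were almost equal to one another, at 51.96 ± 1.20 CPM (SD, n = 3), and lay below all 3 control libraries, at 68.98 ± 15.71 CPM. Its log2 fold change was −0.41 ± 0.15 (SE), with an interval of −0.75 to −0.061 and an adjusted p of 0.137 (edgeR). Control replicate 1 was the highest library, and the fit that left it out gave −0.21. With a correction for the G and C content of the transcripts it was −0.17, with an adjusted p of 0.539 (edgeR).

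TFPI2, a related inhibitor that acts on plasmin and other matrix proteases (Entrez gene 7980, chr7:93885396-93890991), had 112.3, 87.71 and 94.52 CPM in the control libraries. The U87MG-LMO2 libraries had 84.79, 116.9 and 82.00 CPM, and the groups overlapped. The log2 fold change was −0.054, with a 95% interval of −0.41 to 0.31 and an adjusted p of 0.857 (edgeR). Within each library, F3 stood lower against both inhibitors in the control than in U87MG-LMO2. The ratio of F3 to TFPI, in FPKM and therefore per length, was 0.261, 0.148 and 0.172 in the control libraries and 0.503, 1.13 and 0.617 in the U87MG-LMO2 libraries. The ratio of F3 to TFPI2 was 0.228, 0.124 and 0.109 in the control and 0.323, 0.516 and 0.399 in U87MG-LMO2. Neither ratio overlapped between the groups, and both were higher in U87MG-LMO2, 3.75-fold for TFPI and 2.78-fold for TFPI2. The exact permutation test over libraries (2-sided) gave p = 0.1 for each, the smallest value that 3 against 3 libraries allow, and 0.15 after adjustment over the 6 ratios tested.

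Thrombomodulin and thrombospondin 1 were the lowest of the 9 genes. THBD (Entrez gene 7056, chr20:23045633-23049741) had 3.123, 4.820 and 3.027 CPM in the control libraries and 3.416, 4.363 and 3.254 CPM in the U87MG-LMO2 libraries, from 36 to 66 counts a library. The groups overlapped, and the fitted log2 fold change was −0.00012 (edgeR). Its 95% interval was −0.50 to 0.50, so that a change of either sign within this interval is compatible with these libraries.

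THBS1 (Entrez gene 7057, chr15:39581079-39599466) had 2.169, 1.826 and 2.195 CPM in the control libraries, close to one another, from 25, 25 and 29 counts. The U87MG-LMO2 libraries had 6.039, 13.91 and 2.591 CPM, from 99, 204 and 43 counts, and were 5.37-fold apart between the highest and the lowest. All 3 lay above the control, replicate 3 by little. The log2 fold change was 1.85 ± 0.54 (SE), the largest of the 9 genes in edgeR's fit, with an interval of 0.62 to 3.09 and an adjusted p of 0.0754. DESeq2 called THBS1 higher, with an adjusted p of 0.00302. Without U87MG-LMO2 replicate 3 the log2 fold change was 2.26 and edgeR's adjusted p was 0.00324, and without replicate 2, which had the most counts, it was 1.06.

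**Figure D2:**
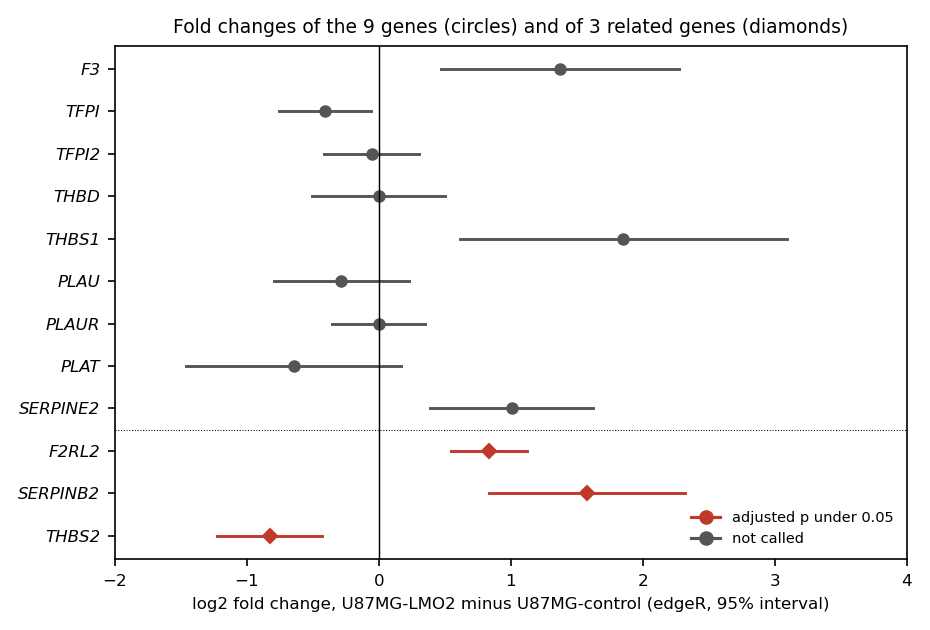
Log2 fold change of U87MG-LMO2 against U87MG-control (x axis, edgeR) with its 95% interval for the 9 genes (circles) and 3 related genes (diamonds, below the dotted line); red marks an adjusted p under 0.05. The intervals of F3, TFPI, THBS1 and SERPINE2 exclude 0 while their adjusted p values were over 0.05, and F2RL2, SERPINB2 and THBS2 passed the threshold.

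The second comparison concerned the plasminogen activators, the urokinase receptor and protease nexin 1. PLAU (Entrez gene 5328, chr10:73909177-73917497), which encodes urokinase, had 186.9, 156.6 and 162.6 CPM in the control libraries and 111.1, 198.6 and 106.1 CPM in the U87MG-LMO2 libraries. U87MG-LMO2 replicates 1 and 3 lay below the control and replicate 2 above it. The log2 fold change was −0.28 ± 0.23 (SE), with an adjusted p of 0.464 (edgeR). When replicate 2 was left out it was −0.64, with an adjusted p of 0.0283, so that the library left out decided the call.

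PLAUR, the receptor that holds urokinase at the cell surface (Entrez gene 5329, chr19:43646095-43670547), had 156.7, 141.3 and 129.9 CPM in the control libraries and 120.3, 177.4 and 130.0 CPM in the U87MG-LMO2 libraries. Its group means were nearly the same, 142.6 ± 13.42 CPM for the control libraries and 142.5 ± 30.55 CPM for the others (SD, n = 3 each). The 95% interval of the log2 fold change was −0.35 to 0.35. The ratio of PLAU to PLAUR overlapped between the groups, at 0.802-fold the control value (exact permutation p = 0.2, adjusted p = 0.24).

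PLAT (Entrez gene 5327, chr8:42175233-42207724), which encodes the tissue-type activator, had 30.88, 19.50 and 20.43 CPM in the control libraries. In the U87MG-LMO2 libraries it had 11.96, 8.453 and 24.64 CPM, of which replicates 1 and 2 lay below every control library and replicate 3 among them. The log2 fold change was −0.645 ± 0.36 (SE), with an interval of −1.46 to 0.17 and an adjusted p of 0.295 (edgeR). Without U87MG-LMO2 replicate 3 it was −1.20, with an adjusted p of 0.00846. The ratio of PLAU to PLAT spread from 5.69 to 31.2 over the U87MG-LMO2 libraries and overlapped the control (exact permutation p = 0.7, adjusted p = 0.7).

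SERPINE2 (Entrez gene 5270, chr2:223975112-224039319), the serpin that blocks both activators and thrombin, had 87.80, 83.69 and 78.17 CPM in the control libraries, a narrow range. The U87MG-LMO2 libraries had 129.9, 114.9 and 257.4 CPM, all above the control, with replicate 3 far above the other two. The control mean was 83.22 ± 4.83 CPM and that of U87MG-LMO2 167.4 ± 78.3 CPM (SD, n = 3 each). The log2 fold change was 1.01 ± 0.27 (SE), with an interval of 0.39 to 1.63 and an adjusted p of 0.0591 in edgeR's quasi-likelihood test, the lowest of the 9 genes. DESeq2 called it higher, with an adjusted p of 0.00267. Without U87MG-LMO2 replicate 3 the log2 fold change was 0.56 and edgeR's adjusted p was 0.00483.

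The ratio of PLAT to SERPINE2 separated the groups with little spread. It was 0.250, 0.165 and 0.185 in the control libraries and 0.0652, 0.0520 and 0.0684 in the U87MG-LMO2 libraries, in FPKM. In U87MG-LMO2 replicate 3 both genes had their highest level of that group, and the ratio of that library was like those of the other two. On the log2 scale the mean was −2.35 ± 0.31 in the control and −4.03 ± 0.21 in U87MG-LMO2 (SD, n = 3 each), a difference of −1.68 that stayed between −1.81 and −1.51 when any 1 library was left out. PLAU against SERPINE2 was also lower in every U87MG-LMO2 library, at 0.803, 1.63 and 0.390 against 1.99, 1.76 and 1.94 in the control, but by a difference that varied more, 0.421-fold on average. Both ratios gave an exact permutation p of 0.1, the smallest this design allows, and an adjusted p of 0.15 over the 6 ratios.

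**Figure D3:**
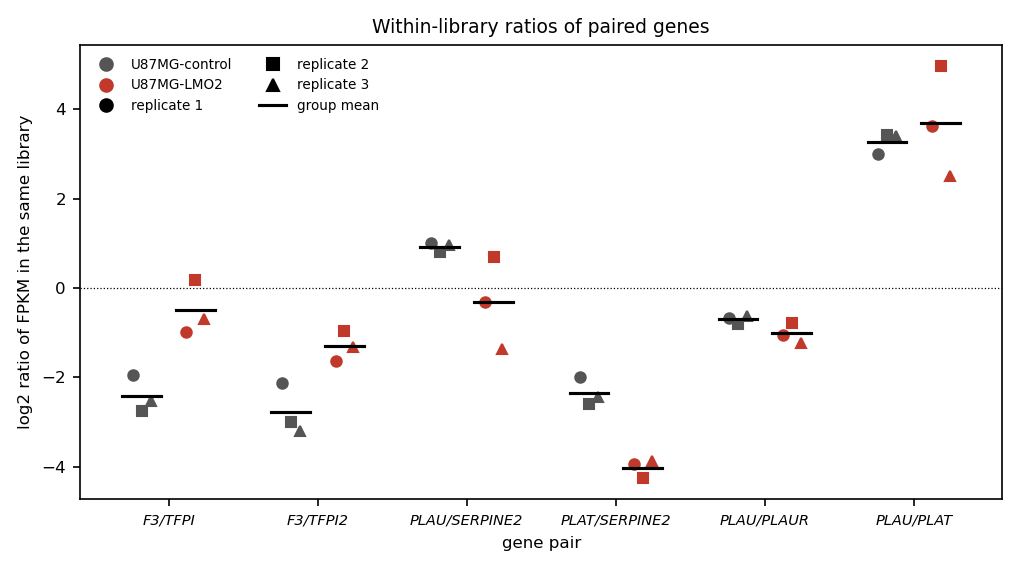
Log2 ratio of FPKM values of paired genes within the same library (y axis) for 6 pairs (x axis), with U87MG-control in grey and U87MG-LMO2 in red, points shaped by replicate and thick lines at the group means. The groups do not overlap for the first 4 pairs, and for PLAT/SERPINE2 the 3 points of each group lie close together.

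Counted together, 0 of the 9 genes passed an adjusted p of 0.05 in edgeR's test, against 7.48% of all tested genes, and 4 had an unadjusted p under 0.05 (F3, TFPI, THBS1 and SERPINE2), against 25.7% of all tested genes. The normalised read counts of the same 4 genes did not overlap between the groups, against 34.1% of all tested genes. The median log2 fold change of the 9 was −0.0011, and that of all tested genes was −0.011. DESeq2 called 2 of the 9, THBS1 and SERPINE2, where it called 10.3% of all tested genes. With no filter on low counts edgeR called 3, F3, THBS1 and SERPINE2, against 5.31% of all tested genes. Limma on log2(FPKM + 1) or log2(FPKM + 0.1) called 0 of the 9. Over all 16092 genes it called 521 higher and 369 lower with the first, and 512 and 363 with the second.

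The U87MG-LMO2 libraries differed from one another in these genes. Replicate 2 was the highest of the 3 for F3, TFPI2, THBD, THBS1, PLAU and PLAUR, replicate 3 for PLAT and SERPINE2, and replicate 1 for TFPI. The ratio of the highest to the lowest library was larger in U87MG-LMO2 than in the control for 6 of the 9 genes, among them PLAT, at 2.92 against 1.58, and SERPINE2, at 2.24 against 1.12. LMO2 itself was highest in replicate 3. Leaving out replicate 2 gave 2 calls among the 9, PLAU and SERPINE2, where 5.4% of all tested genes were called. Leaving out replicate 3 gave 4, F3, THBS1, PLAT and SERPINE2, where 14.7% were called. F3, TFPI, THBS1, PLAU, PLAT and SERPINE2 had the same direction in 15 of 15 alternative fits, TFPI2 in 11, PLAUR in 7 and THBD in 6. All 15 fits drew on the same 6 libraries, so a shared direction is not separate evidence. Over these fits the adjusted p, from edgeR, DESeq2 or limma, ranged from 0.0178 to 0.216 for F3, from 0.00302 to 0.213 for THBS1 and from 0.00267 to 0.185 for SERPINE2. It ranged from 0.109 to 0.539 for TFPI, from 0.0283 to 0.777 for PLAU and from 0.00846 to 0.637 for PLAT.

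**Figure D4:**
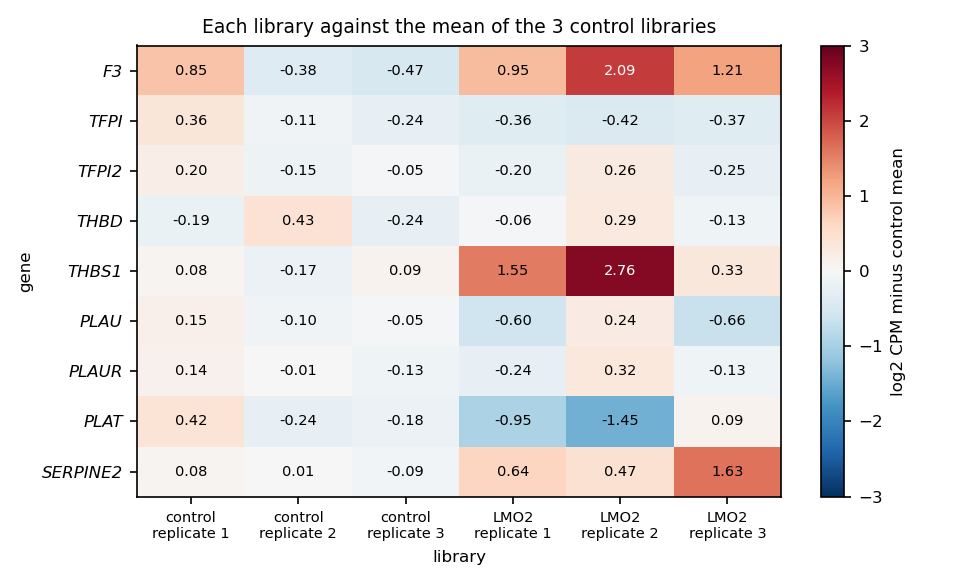
Log2 CPM of each of the 9 genes (rows) in each library (columns) minus the mean log2 CPM of the 3 control libraries, printed in each cell and coloured from blue (lower) to red (higher). U87MG-LMO2 replicate 2 stands at 2.09 for F3 and 2.76 for THBS1, replicate 3 at 1.63 for SERPINE2, and replicates 1 and 2 at −0.95 and −1.45 for PLAT.

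Set side by side per length, the genes covered a wide range of levels. In the control the order of mean FPKM was PLAUR (114.5 ± 10.38), PLAU (70.56 ± 6.63), TFPI2 (40.40 ± 5.19), SERPINE2 (37.15 ± 2.14), TFPI (31.78 ± 8.02), PLAT (7.47 ± 2.01), F3 (6.41 ± 3.57), THBD (0.903 ± 0.249) and THBS1 (0.530 ± 0.079), as mean ± SD of 3 libraries. TFPI2, SERPINE2 and TFPI lay within their spread of one another, as did PLAT and F3. In U87MG-LMO2 the order was PLAUR (111.6 ± 26.06), SERPINE2 (71.51 ± 29.44), PLAU (56.89 ± 22.65), TFPI2 (37.94 ± 8.77), TFPI (21.46 ± 1.30), F3 (16.10 ± 7.41), PLAT (4.55 ± 2.37), THBS1 (2.07 ± 1.58) and THBD (0.887 ± 0.168). There TFPI2 lay above TFPI, and F3 above PLAT, by more than their SDs, while the other neighbours in the order overlapped within theirs. In U87MG-LMO2 replicate 3, SERPINE2 had 105.24 FPKM and PLAUR 96.02. Among the 16092 tested genes, the mean level of F3 was at percentile 50.7 in the control and 72.1 in U87MG-LMO2, that of SERPINE2 at 87 and 93.6, and that of THBS1 at 8.83 and 29. PLAUR was at percentile 96.2 in both.

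Other genes had a pattern close to that of F3 over the 6 libraries, by the root mean square difference of centred log2 CPM among 15225 genes with a mean of at least 1 CPM. The nearest 3 were HAS2, a hyaluronan synthase, at 0.204, GRIN2C, a subunit of a glutamate receptor, at 0.296, and Entrez gene 105370756, at 0.319. GRIN2C passed edgeR's test, at a log2 fold change of 1.58 (adjusted p 0.028), and HAS2 did not, at 1.30 (adjusted p 0.0752).

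The other genes of coagulation and the plasminogen system were taken from a list of 52, of which 46 had a row and 28 had enough reads to be tested. This list was chosen with earlier results of these data known, so its share of calls is a description and not separate evidence. Of the 28, 2 were higher and 1 lower in U87MG-LMO2 by edgeR's test, which is 10.7% against 7.48% of all tested genes, and the median log2 fold change was −0.018. F2RL2, a receptor of the thrombin receptor family, rose from 2.78 ± 0.036 to 4.80 ± 0.54 FPKM (log2 fold change 0.83 ± 0.13 SE, adjusted p 0.0109). SERPINB2, the plasminogen activator inhibitor 2, rose from 9.27 ± 1.18 to 27.1 ± 15.1 FPKM (1.58 ± 0.33 SE, adjusted p 0.0281). THBS2, the close relative of THBS1, fell from 9.88 ± 0.44 to 5.36 ± 1.17 FPKM (−0.83 ± 0.18 SE, adjusted p 0.03). The call of F2RL2 and that of SERPINB2 were lost when any 1 control library or U87MG-LMO2 replicate 1 was left out, with adjusted p of 0.0529 to 0.0691 and 0.06 to 0.108 (edgeR). That of THBS2 was lost when any 1 control library or U87MG-LMO2 replicate 1 or 2 was left out, with adjusted p of 0.0566 to 0.119 (edgeR). Fewer calls were made over all tested genes too. Without 1 control library or U87MG-LMO2 replicate 1, edgeR called 102 to 177 genes higher and 42 to 56 lower. Without U87MG-LMO2 replicate 2 it called 579 and 304, against 760 and 443 with all 6 libraries.

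By role, 0 of 9 tested coagulation factors and carriers passed the test, 1 of 4 thrombin receptors (F2RL2), 0 of 4 other anticoagulant genes, 1 of 6 other plasminogen system genes (SERPINB2) and 1 of 5 other thrombospondins and receptors (THBS2). The other highly expressed genes of each list lay nearer to 0. VKORC1 and MCFD2, which serve the making and the export of clotting factors, had log2 fold changes of −0.16 and −0.072, and F2R, the main thrombin receptor, had 0.27. ANXA5 and PROCR, the endothelial protein C receptor, had −0.29 and −0.023. ANXA2, a plasminogen-binding protein whose value is uncertain because near-identical pseudogenes can take part of its reads, had −0.17. THBS3 and CD47, a receptor of thrombospondin 1, had 0.29 and 0.091. None of these 8 genes passed the test, with adjusted p between 0.0965 and 0.923 (edgeR). Plasminogen itself (PLG), and the fibrinogen genes FGA and FGG, had too few reads to be tested.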

How the data were processed

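RNA of 3 U87MG-control and 3 U87MG-LMO2 libraries was sequenced by a service company. The authors deposited, per library, expected counts per gene (estimated reads, not normalized) and FPKM values (scaled to gene length and mapped reads). The submitters' processing notes name Bowtie2, BWA and the build GRCh38.p12, without versions or roles, and how strands were counted is not given in the sources used here. The authors' deposited table of group mean FPKM was used only to find damaged rows: 134 genes whose mean differed by more than 0.001 FPKM from the U87MG-LMO2 libraries were left out, as replicate 3 had 3 unreadable lines, and none of the 9 genes was among them. Its log2 ratio and probability columns were not used.

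Expected counts were rounded and tested with edgeR 4.0.16 in R 4.3.3 (TMM factors, filterByExpr, quasi-likelihood test, 2-sided), with Benjamini-Hochberg adjustment over 16092 genes, and a call is an adjusted p under 0.05. CPM values used TMM library sizes. The standard error is the log2 fold change over the square root of F. FPKM ratios were tested by exact permutation over libraries. The alternatives were DESeq2 1.42.0, limma 3.58.1 on log2(FPKM + 1) and log2(FPKM + 0.1), other scaling factors, other filters, a GC-content correction, a replicate block and leaving out each library. The scripts were tested on simulated data. The genes named are the 9, LMO2, and of a list of 52 related genes those called and the 2 highest of each role (1 gene that the rule also names is not reported here), with the 3 patterns nearest to F3. The 9 genes and the lists were chosen with earlier results of these data known. Positions are from GENCODE v29 (GRCh38) and promoter windows from RefSeq (GRCh38.p14). Neither THBD nor PLAT had a window, and F9, F13B, SERPINA5, HRG, A2M and COMP were not analysed here.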

Additional observations from a re-analysis of the deposited data

How the results depend on the processing

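The count of 0 called among the 9 genes became 2 higher with DESeq2 and 3 higher with no filter on low counts, and ranged from 0 to 3 higher and 0 to 1 lower when 1 library was left out. Among the related genes, the 2 called higher became 1 with limma on log2(FPKM + 1), and the counts ranged from 0 to 3 higher and 0 to 2 lower when 1 library was left out. Over all tested genes, the fits without 1 library called 102 to 1307 genes higher and 42 to 1102 lower. Fits that left out a library of a group used the spread of the remaining libraries of both groups. LMO2 kept its call in every fit that tested it, with log2 fold changes of 7.67 to 10.01, and a minimum of 10 counts in every library removed it. Genes with differences near 0 turned in sign: TFPI2 was 0.014 with the GC-content correction and −0.24 to 0.052 without 1 library. THBD was 0.0038 with DESeq2, 0.0027 with RLE size factors, 0.0034 with upper-quartile factors, 0.0034 with no filter, 0.0034 with at least 10 counts and −0.14 to 0.26 without 1 library. PLAUR was 0.0020 with DESeq2, 0.0020 with RLE size factors, 0.0028 with upper-quartile factors, 0.0040 with no filter, 0.0035 with at least 10 counts and −0.19 to 0.11 without 1 library. The difference between the groups in the log2 ratio of PLAU to PLAT (U87MG-LMO2 minus control) was −0.20 to 1.03 without 1 library, negative without U87MG-LMO2 replicate 2. The cause was not tested. The replicate numbers share no pairing in the labels, and the correlations of deviations for numbers 1 to 3 were −0.12, 0 and −0.04. With the replicate block, edgeR called 387 genes higher and 189 lower in place of 760 and 443, 0 of the 9 genes passed, and THBD was 0.023.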

Other observations

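The FPKM and the expected count of a gene give the transcript length that the authors' estimate used in each library, a measure that was examined after the values were seen. For 7 of the 9 genes this length varied by at most 1.14% of its mean over the 6 libraries. For THBS1 it was 4320, 3892 and 3556 bases in the control libraries and 3686, 3622 and 3167 bases in the U87MG-LMO2 libraries, a range of 31.1% of the mean, and the groups overlapped (exact permutation p = 0.3). For TFPI it was 2162, 2092 and 2342 bases in the control and 2368, 2316 and 2422 bases in U87MG-LMO2, a range of 14.5%, also with overlap (exact permutation p = 0.2). How far this length bears on the fold changes of both genes was not tested.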
